A study of Mus musculus with 9 samples.

Results

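The genes described here belong to WNT signalling: 18 WNT ligands, 15 receptors and co-receptors, 10 secreted antagonists, 8 feedback regulators and R-spondin receptors, 5 nuclear factors and 3 genes of the destruction complex and of ligand processing. They were chosen by symbol from the deposited table of counts per gene, as all symbols made of Wnt or Fzd and a number plus a written list of other pathway genes, with at least 10 counts summed over the 9 libraries. Of 60 symbols matched, 59 met this minimum, out of 24421 genes in the table. The rule itself uses no expression difference.

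The RNA came from D3, an established mouse embryonic stem (ES) cell line, in 3 groups of 3 libraries. Every group was kept feeder-free on gelatin with 15% fetal bovine serum and 1000 U/mL of ESGRO, a preparation of leukemia inhibitory factor. The VT group stably carried the empty pCDH vector, the LAMP2A group overexpressed LAMP2A, and the LAMP2A+DM-αKG group overexpressed it in the presence of 4 mM DM-αKG during 72 h. LAMP2A, one of the splice forms of LAMP2, is the lysosomal receptor of chaperone-mediated autophagy. DM-αKG (dimethyl α-ketoglutarate) is a cell-permeable form of α-ketoglutarate. No group of VT cells was given DM-αKG, so that LAMP2A+DM-αKG against VT differs in both the transgene and the compound. The transgene's promoter is not given in the sources used here, and neither is whether the lines were clones or pools. Separate cultures are not stated for the libraries of a group. The p-values therefore measure the spread between these samples alone, which may be technical.

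WNT proteins are lipid-modified by the acyltransferase Porcn, leave the cell with the carrier Wls, and bind Frizzled receptors together with the co-receptors Lrp5 and Lrp6. Binding stops a destruction complex of Axin, Apc and kinases from marking β-catenin (Ctnnb1) for degradation, and β-catenin then enters the nucleus and works with the TCF/LEF factors on target genes such as Axin2, Sp5, Lef1 and Nkd1, several of which act back on the pathway. Some ligands, Wnt5a among them, also act through the receptors Ror1, Ror2 and Ryk without β-catenin. In mouse ES cells, WNT signalling is known for supporting self-renewal, and Tcf7l1 is known as a repressor of pluripotency genes.

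TCF/LEF factors bind sites with the core CTTTGAT, so this motif was searched on both strands in the 250 bases before each RefSeq gene start (mouse build GRCm38.p6). Of the 59 genes, 40 were matched in the promoter table, with 50 windows. The motif was found in 3 of the 50 windows (6.0%), and in 1053 of the 32851 windows of the whole table (3.21%). The 3 windows belong to Sp5, Wnt11 and Wnt5b, and are shown because they hold the motif. All 3 genes were higher in LAMP2A than in VT, but so were 43 of the 54 WNT pathway genes tested. Whether the motif has a part in these differences was not tested. Capitals mark the motif, and each window is printed 5′ to 3′ on the strand of its gene.
Sp5, chr2:70474673-70474922, + strand: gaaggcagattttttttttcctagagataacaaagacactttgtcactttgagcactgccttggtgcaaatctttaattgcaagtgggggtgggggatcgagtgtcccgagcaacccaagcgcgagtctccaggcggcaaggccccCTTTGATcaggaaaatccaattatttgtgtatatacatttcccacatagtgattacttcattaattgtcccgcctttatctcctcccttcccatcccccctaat
Wnt11, chr7:98834862-98835111, + strand: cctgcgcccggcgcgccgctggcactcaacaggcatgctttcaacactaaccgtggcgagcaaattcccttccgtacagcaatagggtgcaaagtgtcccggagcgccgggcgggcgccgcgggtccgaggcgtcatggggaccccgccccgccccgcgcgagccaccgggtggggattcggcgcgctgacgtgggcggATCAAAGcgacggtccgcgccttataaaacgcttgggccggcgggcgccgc
Wnt5b, chr6:119449387-119449636, - strand: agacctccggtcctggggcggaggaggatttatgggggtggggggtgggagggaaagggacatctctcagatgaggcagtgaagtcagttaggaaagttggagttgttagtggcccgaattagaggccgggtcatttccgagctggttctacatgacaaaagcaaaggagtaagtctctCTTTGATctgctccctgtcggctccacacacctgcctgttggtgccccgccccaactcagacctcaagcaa
The motif began at base -104 from the start of Sp5, -51 from that of Wnt11 (where it lies on the opposite strand and reads ATCAAAG) and -71 from that of Wnt5b. It was in 1 of 2 start windows of Wnt11 and 1 of 3 of Wnt5b. The Wnt5b window that holds it lies inside the gene (chr6:119432531-119544347). The window before the outermost start of Wnt5b (chr6:119544348-119544597) has no match. Which start is used in these cells was not tested. Among the matched genes without these letters in the window is Axin2, a textbook target of β-catenin. A match of letters is a description and shows no binding.

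The libraries held 23636074 to 32809875 counts. Lamp2, the host gene of LAMP2A, stood at 57.5, 56.9 and 60.0 CPM in VT, 407, 403 and 403 CPM in LAMP2A and 99.3, 95.4 and 96.9 CPM in LAMP2A+DM-αKG. Counts per gene do not separate its splice forms. Lamp2 rose with the transgene (log2 fold change 2.80, edgeR adjusted p = 2.23e-38) and was also above VT in LAMP2A+DM-αKG, by 0.74 (adjusted p = 4.55e-19). It was far below LAMP2A there (log2 fold change -2.06, adjusted p = 3.98e-35). LAMP2A+DM-αKG against LAMP2A thus differs in the level of Lamp2 RNA as well as in the compound, and these cannot be told apart. Levels are CPM, counts brought to a common library total with the TMM factor of each library. The summed level of 8 markers of pluripotent ES cells was 7292 to 7711 CPM in VT, 1733 to 1737 CPM in LAMP2A and 6252 to 6298 CPM in LAMP2A+DM-αKG, and 8 of 8 fell in LAMP2A against VT. Of all genes tested, 43% were higher and 42.1% lower in LAMP2A than in VT, which is the background for these counts of markers. Markers of other cells mostly moved the other way in LAMP2A. The sum of 9 primitive and parietal endoderm markers was 615 to 639, 3969 to 4018 and 967 to 994 CPM in the 3 groups in that order, with 9 of 9 higher in LAMP2A than in VT. That of 5 smooth muscle markers was 21.0 to 23.2, 2022 to 2061 and 18.8 to 20.7 CPM, with 5 of 5 higher. For 7 trophoblast markers it was 66.2 to 71.8, 1156 to 1167 and 85.6 to 90.3 CPM, with 6 of 6 tested higher and Elf5 at 0 in VT and LAMP2A+DM-αKG. For 7 mesoderm markers it was 9.79 to 10.4, 131 to 134 and 13.9 to 15.3 CPM, with 6 of 6 tested higher, and for 9 fibroblast or feeder markers 24.2 to 29.0, 189 to 196 and 28.2 to 29.9 CPM, with 7 of 8 tested higher and Lum at 0 in VT. These sums separate LAMP2A from the other groups in the same way as most values below, and their part in the results on WNT genes was not tested. In bulk RNA, fewer cells of a type and less RNA per cell cannot be told apart.

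Most WNT pathway genes were higher in LAMP2A than in VT and lower again in LAMP2A+DM-αKG. Of 59 genes, 54 had enough counts to be tested (Wif1, Wnt2, Wnt8b, Wnt9b and Wnt16 did not). The filter on counts used all 9 libraries, so a gene high in LAMP2A alone could enter the test through that group. With only the VT and LAMP2A+DM-αKG libraries, 11 of the 54 lacked enough counts. The rise in LAMP2A and the fall with DM-αKG of genes that entered in this way are not independent of the filter. They are part of the counts and medians below. In LAMP2A against VT, 43 rose, 9 fell and 2 (Sfrp5 and Wnt10a) did not pass an adjusted p of 0.05. So many genes differed between these groups that 85.1% of all 14513 genes tested passed, 43% higher and 42.1% lower. A change of at least 2-fold was found for 33 genes higher and 6 lower, where 19.8% and 9.61% of all genes tested passed this limit. The median log2 fold change was 1.39 over the members tested and 0.01 over all genes tested. In LAMP2A+DM-αKG against LAMP2A, 9 rose and 43 fell (41.1% and 42.1% of all genes tested), 6 and 29 of them by at least 2-fold (8.06% and 17.6% of all genes), and Wnt10a and Znrf3 did not pass. The median was -1.31, against -0.001 over all genes. In this comparison 83.2% of all genes tested passed. In LAMP2A+DM-αKG against VT, 21 rose, 10 fell and 23 did not pass (29.3% higher, 29.3% lower and 58.7% in either direction among all genes tested), 6 and 1 of them by at least 2-fold (3.93% and 2.63%), with a median of 0.22 against 0.003. The 3 comparisons share groups of libraries, so they are not independent of each other. Over all 59 genes, the 3 LAMP2A libraries lay above the 3 VT libraries without overlap for 45 genes and below for 10, which was so for 43.1% and 41.9% of all genes tested. The LAMP2A+DM-αKG libraries lay above those of LAMP2A for 9 genes and below for 45 (42.3% and 43.2% of all genes tested), and above those of VT for 22 and below for 9 (30.9% and 30.3%).

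**Figure D1:**
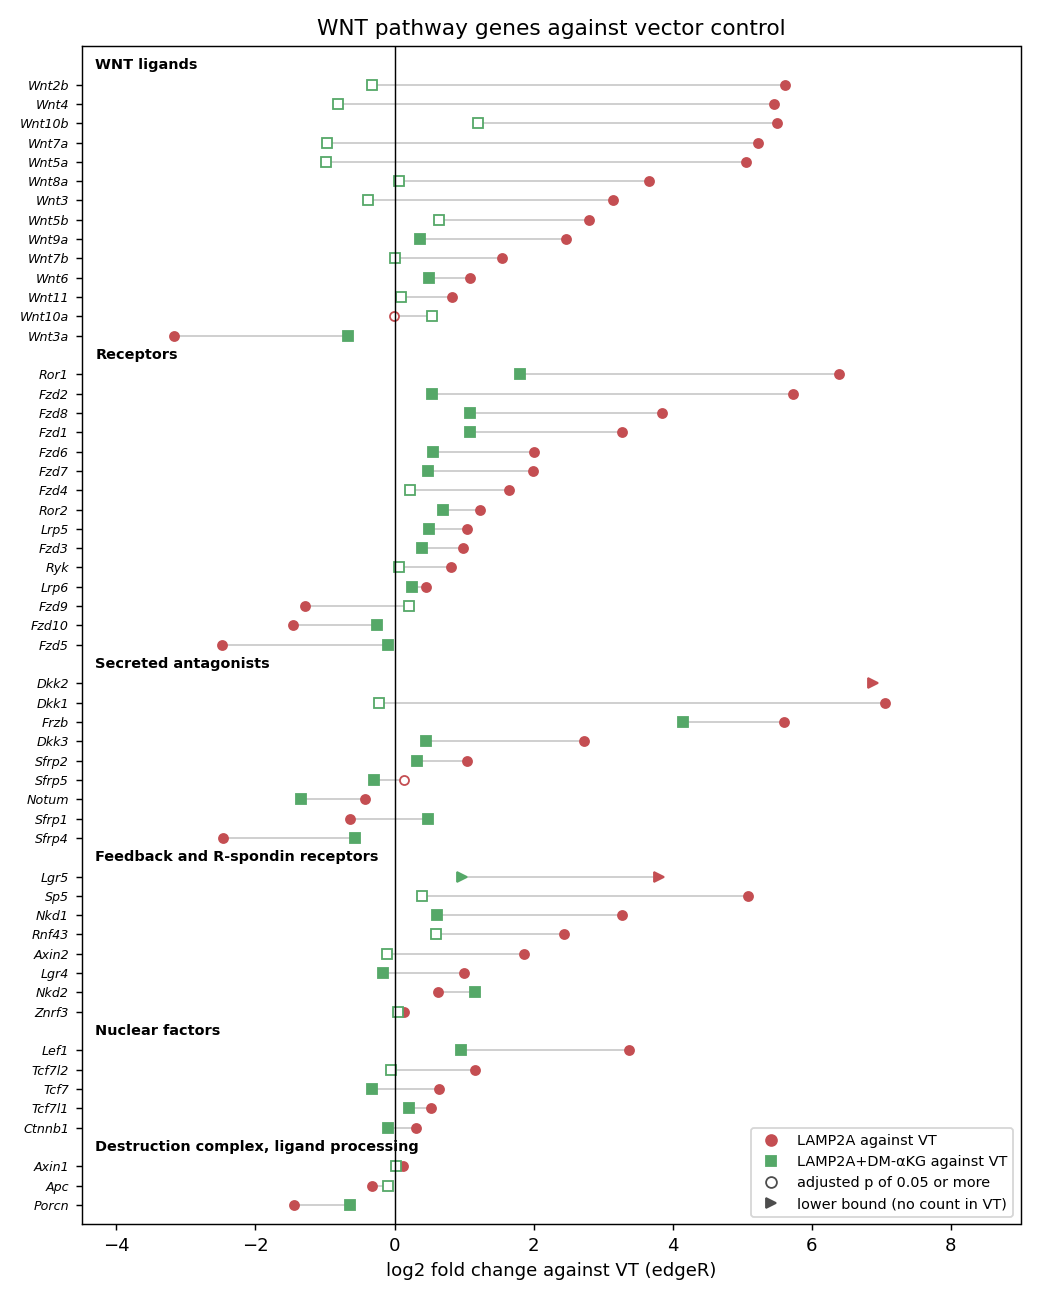
Log2 fold change against VT (x axis) of the 54 WNT pathway genes tested, by role (y axis), for LAMP2A (circles) and LAMP2A+DM-αKG (squares), 3 libraries a group. Open symbols have an adjusted p of 0.05 or more, triangles are lower bounds for genes without a count in VT (Dkk2, Lgr5), and Frzb and Wnt10b, with 1 and 3 counts in VT, are drawn at their count ratio. Most circles lie right of 0 and most squares lie closer to 0 than the circle of the same gene.

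WNT ligands, which start the signal, were mostly low in VT and higher in LAMP2A. Of 14 ligands tested, 12 rose, Wnt3a fell and Wnt10a did not pass, with a median log2 fold change of 2.97. Among all genes tested, 43% rose and 42.1% fell. With DM-αKG, 12 fell and Wnt3a rose against LAMP2A (42.1% and 41.1% of all genes tested). Against VT, 11 of the 14 did not pass in LAMP2A+DM-αKG, where 58.7% of all genes tested passed. Positions given beside gene names are on build GRCm38 (mm10), from the GENCODE M21 annotation.

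Wnt6 (chr1:74771892-74785322) was the ligand with the highest level per exon length in VT, at 2.16 ± 0.172 CPM per kb (SD, n = 3). It stood at 4.32, 5.07 and 4.80 CPM in VT, 9.64, 10.5 and 9.93 CPM in LAMP2A and 6.35, 7.47 and 6.25 CPM in LAMP2A+DM-αKG. The groups did not overlap, with LAMP2A highest and LAMP2A+DM-αKG between it and VT. The log2 fold change was 1.08 ± 0.09 (SE) in LAMP2A against VT (adjusted p = 2.53e-13) and 0.49 ± 0.10 in LAMP2A+DM-αKG against VT (adjusted p = 7.41e-05). Wnt9a (chr11:59306928-59333552) stood at 2.14, 2.07 and 1.97 CPM in VT, 11.4, 11.5 and 11.2 CPM in LAMP2A and 2.52, 2.27 and 3.06 CPM in LAMP2A+DM-αKG. It was 5.51-fold higher in LAMP2A than in VT (adjusted p = 9.63e-22). Its smaller difference between LAMP2A+DM-αKG and VT, 0.36 on the log2 scale (adjusted p = 0.0347), was lost with DESeq2 (0.0890) and without VT replicate 2 (0.0610), VT replicate 3 (0.0907) or LAMP2A+DM-αKG replicate 3 (0.295), in a range of 0.0145 to 0.295 over all 14 alternatives.

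Wnt4, known for its part in the development of kidney and ovary, went from traces to one of the higher ligands. The gene (chr4:137277489-137299726) stood at 0.123, 0.370 and 0.298 CPM in VT, 11.7, 12.4 and 12.0 CPM in LAMP2A and 0.126, 0.231 and 0.0998 CPM in LAMP2A+DM-αKG. All LAMP2A libraries were far above the other 6, and those of VT and LAMP2A+DM-αKG overlapped. It was 44.1-fold higher in LAMP2A than in VT (adjusted p = 5.42e-26) and 77.7-fold lower in LAMP2A+DM-αKG than in LAMP2A (adjusted p = 2.21e-26). Wnt5a, the ligand best known for signalling without β-catenin (chr14:28504750-28527448), stood at 0.0823, 0.148 and 0.149 CPM in VT, 4.20, 4.69 and 4.33 CPM in LAMP2A and 0.0841, 0 and 0.0998 CPM in LAMP2A+DM-αKG. Wnt7a (chr6:91363981-91411363) stood at 0.123, 0.148 and 0.0372 CPM in VT, 3.89, 4.04 and 4.00 CPM in LAMP2A and 0.0841, 0 and 0.0665 CPM in LAMP2A+DM-αKG. Wnt2b (chr3:104945272-104961921) stood at 0, 0.111 and 0.0744 CPM in VT, 3.13, 3.76 and 3.14 CPM in LAMP2A and 0.126, 0 and 0.0333 CPM in LAMP2A+DM-αKG. For these 3 genes the other 6 libraries held at most 0.149 CPM, and LAMP2A was 33.4-fold, 37.3-fold and 49.1-fold above VT in that order (adjusted p = 1.92e-19, 6.78e-19 and 3.94e-17). The fold of Wnt2b rests on 5 counts in VT, and its log2 fold change of 5.62 became 6.27 without VT replicate 2. The small counts of all 3 genes in VT and LAMP2A+DM-αKG left no detectable difference between these groups at this depth (adjusted p = 0.253, 0.309 and 0.794). Wnt10b (chr15:98770712-98778150), a ligand known for signalling through β-catenin, stood at 0.0823, 0.0370 and 0 CPM in VT, 1.67, 1.80 and 1.72 CPM in LAMP2A and 0.0841, 0.116 and 0.0665 CPM in LAMP2A+DM-αKG. With 3 counts in VT in all, the ratio of LAMP2A to VT was 45.1 (95% counting interval 15.2 to 221), and its fitted log2 fold change of 5.34 became 6.24 without VT replicate 1.

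The other 5 ligands that rose, Wnt3, Wnt5b, Wnt7b, Wnt8a and Wnt11, did so by 0.83 to 3.66 on the log2 scale, the smallest being that of Wnt11. In LAMP2A+DM-αKG, all 5 fell against LAMP2A, by 0.74 to 3.61. Wnt3a, a ligand that activates β-catenin, was singled out after its values were seen, as the only ligand tested that fell. It stood at 0.946, 0.629 and 0.893 CPM in VT, 0.122, 0.0932 and 0.0373 CPM in LAMP2A and 0.673, 0.347 and 0.532 CPM in LAMP2A+DM-αKG. LAMP2A was 8.98-fold below VT (adjusted p = 1.98e-08), and LAMP2A+DM-αKG lay above LAMP2A (log2 fold change 2.50, adjusted p = 1.18e-05). Its difference from VT with DM-αKG (adjusted p = 0.0478) was at the threshold. That call was lost with DESeq2, with no filter on low counts, in the 6 libraries of the comparison alone and without any one of 7 libraries. Among the ligands with too few counts for a test, Wnt2 had no count in VT, 28 counts in LAMP2A and 1 count in LAMP2A+DM-αKG, and was at least 7.95-fold higher in LAMP2A than in VT. The bound takes VT at 3 counts in all, and like the counting intervals it covers counting error only. Wnt9b had 1, 31 and 2 counts, Wnt16 9, 11 and 11, and Wnt8b 9, 1 and 9 in the 3 groups.

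Summed over the 18 ligands, the level per exon length was 4.70 ± 0.226, 20.0 ± 0.709 and 5.82 ± 0.302 CPM per kb (VT, LAMP2A, LAMP2A+DM-αKG; SD, n = 3). Wnt6 made up 45.9% ± 1.48, 22.9% ± 0.488 and 52.4% ± 2.59 of it (VT, LAMP2A, LAMP2A+DM-αKG). The share of Wnt4 was 1.32% ± 0.590 in VT and 14.4% ± 0.277 in LAMP2A, and that of Wnt9a was 13.2% ± 1.06 and 17.1% ± 0.403. The sum of the ligands in LAMP2A was thus spread over more genes than in VT.

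**Figure D2:**
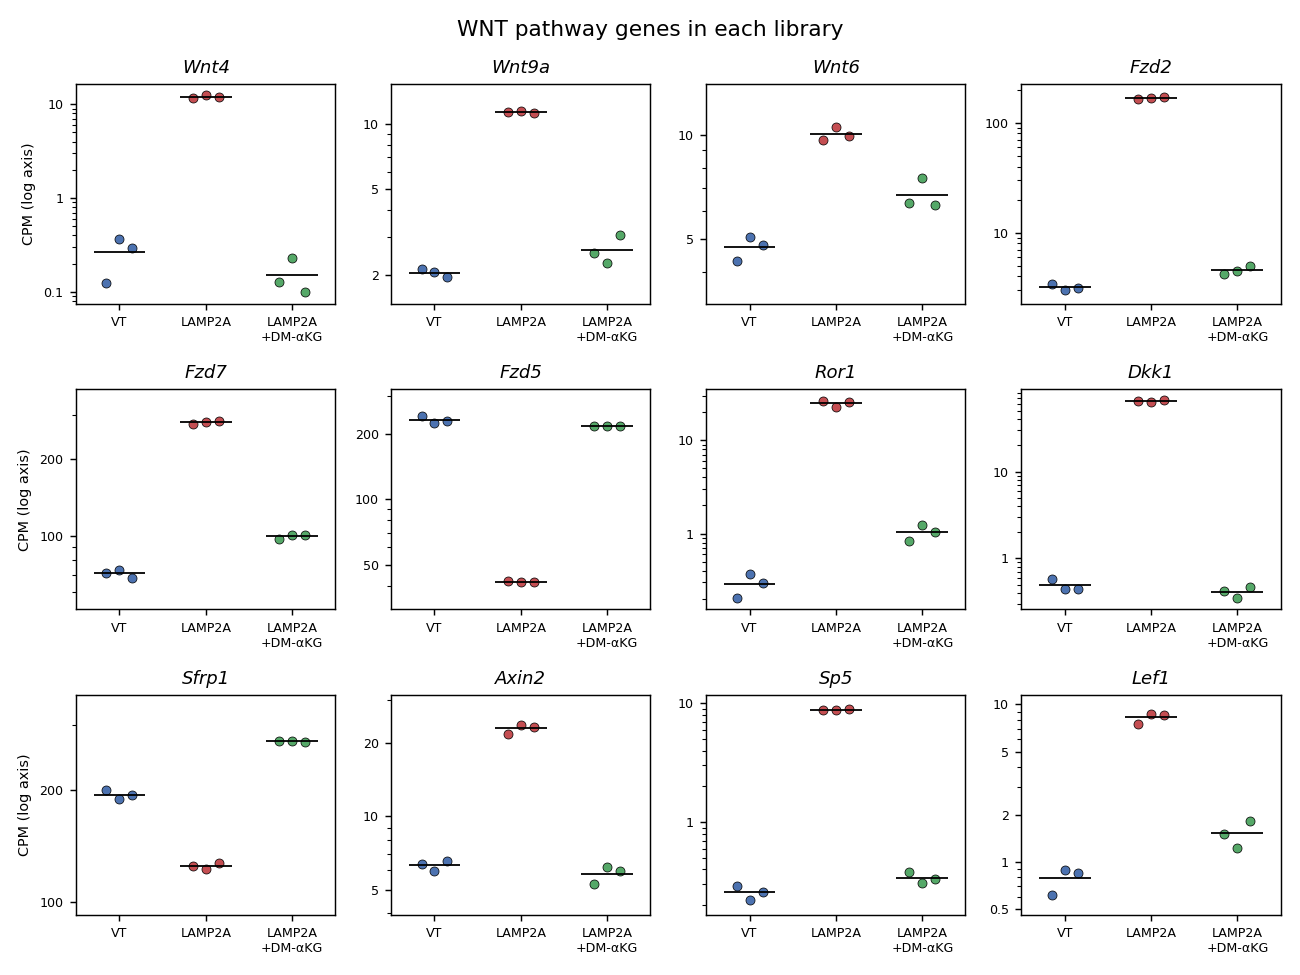
CPM (log axis) of 12 WNT pathway genes in each of the 9 libraries, by group (x axis), with a line at the group mean of 3 libraries. The LAMP2A libraries stand above all others in every panel except Fzd5 and Sfrp1, where they stand below.

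The receptors shifted from Fzd5 to Fzd7 and Fzd2. Among the 10 Frizzled genes, 7 rose and 3 (Fzd5, Fzd9 and Fzd10) fell in LAMP2A against VT, and each of the 10 went the opposite way in LAMP2A+DM-αKG against LAMP2A. Over all 15 receptors and co-receptors, LAMP2A had 12 higher and 3 lower than VT (43% and 42.1% of all genes tested). The median log2 fold change was 1.23. With DM-αKG, 3 rose and 12 fell against LAMP2A (41.1% and 42.1% of all genes tested), with a median of -0.74. The levels in LAMP2A+DM-αKG did not all come down to those of VT. Against VT, 10 of 15 were higher, 2 lower and 3 did not pass, with a median of 0.49. Among all genes tested, 29.3% were higher and 29.3% lower.

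Fzd5 (chr1:64730558-64737751), a Frizzled that transmits β-catenin signals, had the highest level per exon length of the family in VT, 33.6 ± 1.26 CPM per kb (SD, n = 3). Its level was 242, 225 and 230.2 CPM in VT, 41.8, 41.5 and 41.5 CPM in LAMP2A and 217, 218 and 219 CPM in LAMP2A+DM-αKG. The LAMP2A libraries were 5.58-fold below those of VT (log2 fold change -2.48 ± 0.03, SE; adjusted p = 4.82e-36). With DM-αKG it rose 5.24-fold over LAMP2A (adjusted p = 1.74e-35). A difference of -0.09 from VT remained (adjusted p = 0.0105), which was lost without VT replicate 1 (0.0729, in a range over alternatives of 4.35e-04 to 0.0729). Fzd7 (chr1:59482424-59486955), a receptor known from pluripotent cells, stood at 71.5, 73.0 and 68.2 CPM in VT, 276, 282 and 284 CPM in LAMP2A and 96.6, 101 and 101 CPM in LAMP2A+DM-αKG. The 3 groups lay apart, and the gene rose by 1.98 ± 0.03 on the log2 scale in LAMP2A (adjusted p = 7.67e-34) and by 0.49 ± 0.03 in LAMP2A+DM-αKG against VT (adjusted p = 4.75e-14). Fzd2 (chr11:102604396-102608058) stood at 3.37, 3.00 and 3.12 CPM in VT, 164, 170.2 and 171 CPM in LAMP2A and 4.21, 4.47 and 4.96 CPM in LAMP2A+DM-αKG. It was 53.3-fold higher in LAMP2A than in VT, the largest fold among the Frizzled genes (adjusted p = 2.08e-40), and 36.8-fold lower with DM-αKG than in LAMP2A (adjusted p = 4.95e-40).

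On the scale per exon length, the 10 Frizzled genes summed to 64.1 ± 2.07, 133 ± 2.04 and 69.2 ± 0.322 CPM per kb (VT, LAMP2A, LAMP2A+DM-αKG; SD, n = 3). Fzd5 held 52.4% ± 0.542, 4.54% ± 0.0888 and 45.6% ± 0.187 of the sum (VT, LAMP2A, LAMP2A+DM-αKG). Fzd7 held 24.4% ± 1.09, 46.7% ± 0.0525 and 31.7% ± 0.652. Fzd2 held 1.35% ± 0.0414, 34.7% ± 0.215 and 1.79% ± 0.150. The order in VT and in LAMP2A+DM-αKG was Fzd5, Fzd7, Fzd10, and in LAMP2A it was Fzd7, Fzd2, Fzd5, with gaps larger than the spread between libraries in each case.

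**Figure D3:**
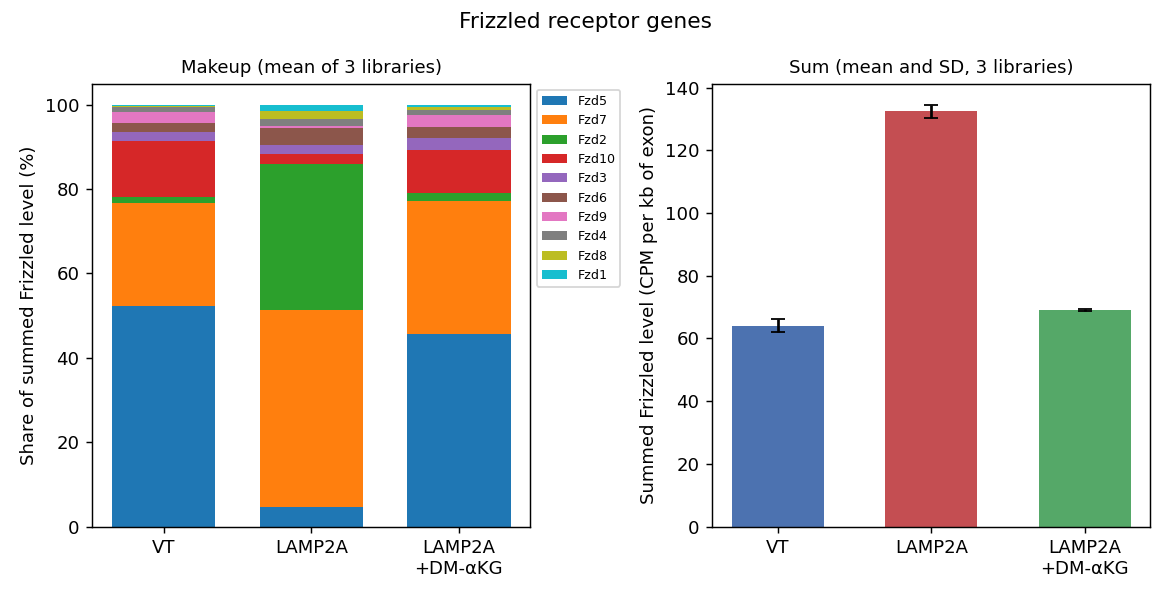
Left, mean share of each Frizzled gene in the summed CPM per kb of exon of the 10 genes in each group of 3 libraries. Right, the sum itself (bar, mean; error bar, SD). Fzd5 makes up most of the bar in VT and Fzd7 with Fzd2 in LAMP2A.

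Fzd8 (chr18:9212163-9218136) stood at 1.40, 1.04 and 0.967 CPM in VT, 15.9, 15.8 and 17.0 CPM in LAMP2A and 2.52, 2.04 and 2.56 CPM in LAMP2A+DM-αKG. Fzd1 (chr5:4753839-4758035) stood at 0.576, 0.961 and 0.855 CPM in VT, 8.21, 7.39 and 7.88 CPM in LAMP2A and 2.06, 1.69 and 1.46 CPM in LAMP2A+DM-αKG. Both were low in VT and rose in LAMP2A, 14.3-fold and 9.67-fold (adjusted p = 1.87e-26 and 7.66e-21), and both stayed 2.11-fold and 2.13-fold above VT in LAMP2A+DM-αKG (adjusted p = 3.70e-06 and 5.18e-05). The remaining 3 that rose, Fzd3, Fzd4 and Fzd6, changed by 0.98 to 2.01 in LAMP2A, and Fzd9 and Fzd10 fell by 1.29 and 1.46.

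Ror1 (chr4:100095791-100444765), a tyrosine kinase-like receptor for Wnt5a, showed the largest fold of all receptors. It stood at 0.206, 0.370 and 0.298 CPM in VT, 26.5, 22.9 and 25.4 CPM in LAMP2A and 0.841, 1.23 and 1.03 CPM in LAMP2A+DM-αKG. The groups did not overlap, and LAMP2A was 83.5-fold above VT (adjusted p = 3.54e-30). In LAMP2A+DM-αKG it was 23.9-fold lower than in LAMP2A but still 3.50-fold above VT (adjusted p = 4.00e-29 and 9.77e-06). The related genes moved less: Ror2 rose by 1.23 ± 0.06 and Ryk by 0.81 ± 0.03 on the log2 scale (SE). The co-receptor Lrp6 (chr6:134446476-134566965) stood at 117, 103 and 118 CPM in VT, 153, 156 and 153 CPM in LAMP2A and 138, 128 and 134 CPM in LAMP2A+DM-αKG. Its groups lay apart but close, with a log2 fold change of 0.45 ± 0.04 in LAMP2A (SE; adjusted p = 1.67e-12) and of 0.24 ± 0.04 in LAMP2A+DM-αKG against VT (adjusted p = 3.06e-06). Lrp5 rose by 1.04 ± 0.04 and 0.49 ± 0.04 in the same comparisons.

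Secreted antagonists, which bind WNT proteins (the Sfrp family, Frzb and Wif1), block Lrp5 and Lrp6 (Dkk1, Dkk2) or strip the lipid from WNT proteins (Notum), did not move as one group. Of 9 tested, 5 rose in LAMP2A against VT (Dkk1, Dkk2, Dkk3, Frzb, Sfrp2), 3 fell (Sfrp1, Sfrp4, Notum) and Sfrp5 did not pass. Of all genes tested, 43% rose and 42.1% fell there. With DM-αKG against LAMP2A, 7 fell, and Sfrp1 and Sfrp4 rose (42.1% and 41.1% of all genes tested). Sfrp2 rose by 1.04 ± 0.07 (SE) in LAMP2A against VT. Sfrp5 fell by 0.43 ± 0.10 with DM-αKG against LAMP2A (adjusted p = 3.48e-04), and its call against VT was lost with DESeq2 and without 3 single libraries (VT replicate 2 and LAMP2A+DM-αKG replicates 1 and 3). Wif1 had too few counts for a test, 5, 6 and 3 in the 3 groups.

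Dkk1 (chr19:30545863-30549665) is itself a known target of WNT signalling. It stood at 0.576, 0.444 and 0.446 CPM in VT, 64.4, 63.3 and 66.6 CPM in LAMP2A and 0.421, 0.347 and 0.466 CPM in LAMP2A+DM-αKG. The LAMP2A libraries were 132-fold above VT (log2 fold change 7.04, adjusted p = 8.59e-37) and the other 6 overlapped (adjusted p = 0.578 for LAMP2A+DM-αKG against VT). Dkk2 (chr3:132085292-132180304) stood at 0, 0 and 0 CPM in VT, 5.66, 3.88 and 3.81 CPM in LAMP2A and 0, 0.0385 and 0 CPM in LAMP2A+DM-αKG. It had no count in VT, 413 counts in LAMP2A and 1 count in LAMP2A+DM-αKG, so that it was at least 117-fold higher in LAMP2A than in VT, and the ratio of LAMP2A to LAMP2A+DM-αKG was 359 (95% counting interval 64.0 to 14205). Dkk3 (chr7:112116017-112159057), a relative that does not block Lrp6 in the same way, stood at 2.55, 2.07 and 2.83 CPM in VT, 16.1, 17.0 and 16.2 CPM in LAMP2A and 3.49, 3.31 and 3.36 CPM in LAMP2A+DM-αKG. It rose by 2.73 ± 0.09 in LAMP2A (SE; adjusted p = 1.27e-24) and by 0.45 ± 0.13 in LAMP2A+DM-αKG against VT (adjusted p = 0.00421). Of the summed Dkk level per exon length, 0.940 ± 0.123 CPM per kb in VT and 32.8 ± 0.549 in LAMP2A (SD, n = 3), Dkk3 held 78.5% ± 3.16 in VT and Dkk1 81.4% ± 0.875 in LAMP2A.

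Sfrp1 (chr8:23411502-23449632) had the highest level of the antagonists per exon length, 44.5 ± 1.20 CPM per kb in VT (SD, n = 3), and moved against most of the pathway. It stood at 199.9, 189 and 194 CPM in VT, 125, 123 and 127 CPM in LAMP2A and 272, 272 and 271 CPM in LAMP2A+DM-αKG. The groups did not overlap: LAMP2A was lowest, at a log2 fold change of -0.64 ± 0.03 against VT (SE; adjusted p = 5.04e-20), and LAMP2A+DM-αKG highest, at 0.48 ± 0.03 against VT (adjusted p = 6.10e-16). Sfrp4 (chr13:19623104-19632994) stood at 5.76, 5.77 and 5.43 CPM in VT, 1.03, 1.21 and 0.784 CPM in LAMP2A and 3.32, 3.93 and 4.06 CPM in LAMP2A+DM-αKG. It fell 5.50-fold in LAMP2A (adjusted p = 1.64e-17) and in LAMP2A+DM-αKG was between the other groups, -0.57 from VT on the log2 scale (adjusted p = 3.39e-05). Frzb (chr2:80411970-80447625), also called Sfrp3, stood at 0, 0.0370 and 0 CPM in VT, 0.578, 0.559 and 0.747 CPM in LAMP2A and 0.168, 0.193 and 0.299 CPM in LAMP2A+DM-αKG. From 1 count in VT, in replicate 2, its ratio to VT was 48.5 (95% counting interval 8.37 to 1951) in LAMP2A and 17.6 (95% counting interval 2.79 to 735) in LAMP2A+DM-αKG. Notum (chr11:120653788-120661175) stood at 22.6, 23.4 and 21.8 CPM in VT, 16.6, 16.9 and 17.0 CPM in LAMP2A and 9.55, 9.09 and 8.12 CPM in LAMP2A+DM-αKG. It fell by 0.43 ± 0.06 in LAMP2A against VT (SE; adjusted p = 1.68e-08) and by a further 0.92 ± 0.07 with DM-αKG (adjusted p = 1.10e-14), and so was 2.55-fold below VT in LAMP2A+DM-αKG (adjusted p = 1.18e-18). It was the only one of the 54 genes tested to lie at least 2-fold below VT in that group.

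All 8 feedback regulators and R-spondin receptors rose in LAMP2A against VT, with a median log2 fold change of 2.15, and 6 of them by at least 2-fold. Among all genes tested, 43% rose, and 19.8% did so by at least 2-fold. With DM-αKG, 6 fell and Nkd2 rose against LAMP2A (42.1% and 41.1% of all genes tested), and Znrf3 did not pass. The group holds genes that β-catenin is known to induce and whose products dampen the signal.

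Axin2 (chr11:108920349-108950783), a scaffold of the destruction complex and a common readout of β-catenin activity, stood at 6.38, 5.99 and 6.55 CPM in VT, 21.9, 23.8 and 23.4 CPM in LAMP2A and 5.26, 6.20 and 5.95 CPM in LAMP2A+DM-αKG. LAMP2A libraries were 3.65-fold above VT (log2 fold change 1.87 ± 0.07, SE; adjusted p = 3.01e-23), and VT and LAMP2A+DM-αKG overlapped (adjusted p = 0.309). Sp5 (chr2:70474923-70477729), a transcription factor induced by β-catenin, whose start window printed above holds the TCF/LEF core, stood at 0.288, 0.222 and 0.260 CPM in VT, 8.85, 8.76 and 8.85 CPM in LAMP2A and 0.379, 0.308 and 0.333 CPM in LAMP2A+DM-αKG. It was 33.9-fold above VT in LAMP2A (adjusted p = 6.50e-25) and 25.7-fold lower with DM-αKG than in LAMP2A (adjusted p = 1.25e-24). Each LAMP2A+DM-αKG library held more Sp5 than each VT library, but this did not pass (adjusted p = 0.420). Nkd1 (chr8:88521354-88594884), which binds Dishevelled and restrains the signal, stood at 1.23, 0.813 and 0.967 CPM in VT, 9.43, 9.79 and 9.75 CPM in LAMP2A and 1.89, 1.62 and 1.16 CPM in LAMP2A+DM-αKG. It rose 9.64-fold in LAMP2A (adjusted p = 5.74e-22), and its difference of 0.62 between LAMP2A+DM-αKG and VT (adjusted p = 0.0129) was lost without VT replicate 2 (0.0725) or LAMP2A+DM-αKG replicate 1 (0.0918), in a range over alternatives of 0.00252 to 0.0918.

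Nkd2 (chr13:73818534-73847631), the relative of Nkd1, followed another order. It stood at 1.97, 1.92 and 1.75 CPM in VT, 2.83, 3.01 and 2.84 CPM in LAMP2A and 3.62, 4.24 and 4.66 CPM in LAMP2A+DM-αKG. LAMP2A lay above VT by 0.62 ± 0.14 (SE; adjusted p = 1.93e-04) and LAMP2A+DM-αKG above LAMP2A by 0.54 ± 0.12 (adjusted p = 1.07e-04), so that it was 2.24-fold above VT with DM-αKG (adjusted p = 6.21e-09). Rnf43 and Znrf3 are ubiquitin ligases that remove Frizzled receptors from the cell surface. Rnf43 (chr11:87662722-87735539) stood at 0.247, 0.370 and 0.298 CPM in VT, 2.04, 1.55 and 1.42 CPM in LAMP2A and 0.589, 0.462 and 0.366 CPM in LAMP2A+DM-αKG. Znrf3 (chr11:5276324-5444847) stood at 20.6, 19.0 and 20.5 CPM in VT, 23.3, 21.7 and 21.1 CPM in LAMP2A and 20.2, 21.2 and 20.6 CPM in LAMP2A+DM-αKG. Rnf43 rose 5.43-fold in LAMP2A (adjusted p = 2.74e-10) from a low level. The rise of Znrf3 by 0.14 ± 0.05 (adjusted p = 0.0190) was lost with DESeq2 (0.0522) and without VT replicate 2 (0.103) or LAMP2A replicate 1 (0.147), in a range over alternatives of 0.0116 to 0.147.

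The receptors Lgr4 and Lgr5 bind R-spondins, which protect Frizzled receptors from removal. Lgr4 (chr2:109917647-110014257) stood at 73.4, 75.4 and 75.2 CPM in VT, 152, 149 and 149 CPM in LAMP2A and 64.5, 69.4 and 66.6 CPM in LAMP2A+DM-αKG. It rose by 1.00 ± 0.03 in LAMP2A (SE; adjusted p = 1.10e-24) and with DM-αKG fell below VT, by 0.16 ± 0.04 (adjusted p = 3.10e-04). Lgr5 (chr10:115450311-115587780) stood at 0, 0 and 0 CPM in VT, 0.395, 0.590 and 0.635 CPM in LAMP2A and 0.126, 0.0770 and 0.0333 CPM in LAMP2A+DM-αKG. Without a count in VT, it was at least 13.9-fold higher in LAMP2A and at least 1.96-fold higher in LAMP2A+DM-αKG, where it rested on 6 counts. The latter difference (adjusted p = 0.0158) was lost without LAMP2A+DM-αKG replicate 1 (0.0600, in a range over alternatives of 0.0125 to 0.0600).

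The 5 nuclear factors all rose in LAMP2A and all fell with DM-αKG against LAMP2A, 2 of them, Lef1 and Tcf7l2, by at least 2-fold each way. Of all genes tested, 43% rose and 42.1% fell in these comparisons, 19.8% and 17.6% by at least 2-fold. Ctnnb1 (chr9:120929216-120960507), the gene of β-catenin, had the highest CPM of all 59 genes. It stood at 1213, 1213 and 1198 CPM in VT, 1485, 1499.7 and 1494 CPM in LAMP2A and 1136, 1126 and 1141 CPM in LAMP2A+DM-αKG. The groups lay apart with small differences, 0.31 ± 0.03 in LAMP2A against VT (SE; adjusted p = 2.00e-12) and -0.09 ± 0.03 in LAMP2A+DM-αKG against VT (adjusted p = 0.00496). RNA levels do not show the amount or place of the β-catenin protein, which is set mainly by its degradation.

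Tcf7l1 (chr6:72626378-72789254), which acts mostly as a repressor, stood at 101, 96.9 and 96.1 CPM in VT, 139, 141 and 143 CPM in LAMP2A and 115, 110.2 and 114 CPM in LAMP2A+DM-αKG. Tcf7 (chr11:52252371-52283014), which acts more as an activator, stood at 27.7, 25.3 and 26.2 CPM in VT, 41.1, 40.6 and 41.3 CPM in LAMP2A and 21.7, 21.5 and 20.2 CPM in LAMP2A+DM-αKG. Both rose in LAMP2A, by 0.53 ± 0.03 and 0.64 ± 0.05 (SE; adjusted p = 7.50e-17 and 1.04e-14), but against VT they parted in LAMP2A+DM-αKG: Tcf7l1 was higher, by 0.21 ± 0.03, and Tcf7 lower, by 0.32 ± 0.05 (adjusted p = 2.15e-06 and 2.81e-06). Tcf7l2 (chr19:55741820-55933654) stood at 12.5, 12.2 and 12.9 CPM in VT, 27.8, 28.0 and 27.7 CPM in LAMP2A and 12.3, 12.2 and 12.0 CPM in LAMP2A+DM-αKG. It was 2.22-fold higher in LAMP2A than in VT (adjusted p = 3.28e-20), and its libraries in VT and LAMP2A+DM-αKG overlapped. Lef1 (chr3:131110471-131224356), an activator that is also a target of the pathway, stood at 0.617, 0.887 and 0.855 CPM in VT, 7.54, 8.64 and 8.59 CPM in LAMP2A and 1.51, 1.23 and 1.83 CPM in LAMP2A+DM-αKG. It rose 10.3-fold in LAMP2A (adjusted p = 3.45e-21) and remained 1.94-fold above VT in LAMP2A+DM-αKG (adjusted p = 4.32e-04). Per exon length, Tcf7l1 held most of the TCF/LEF sum in every group: 68.3% ± 0.528, 64.5% ± 0.255 and 75.0% ± 0.752 (VT, LAMP2A, LAMP2A+DM-αKG; SD, n = 3). The share of Tcf7 was 27.5% ± 0.550, 28.1% ± 0.306 and 21.0% ± 0.799, and that of Lef1 stayed below 2% in all groups.

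The core of the destruction complex changed little. Axin1 (chr17:26138688-26195811), its scaffold, stood at 80.6, 74.4 and 75.3 CPM in VT, 83.5, 82.8 and 84.9 CPM in LAMP2A and 76.4, 78.2 and 79.4 CPM in LAMP2A+DM-αKG. Apc (chr18:34220924-34322552) stood at 232, 203 and 241 CPM in VT, 178, 184 and 178 CPM in LAMP2A and 213, 205 and 215 CPM in LAMP2A+DM-αKG. Axin1 rose by 0.13 ± 0.04 and Apc fell by 0.32 ± 0.05 in LAMP2A against VT (SE; adjusted p = 0.00175 and 3.38e-06). The fall of Axin1 with DM-αKG against LAMP2A, -0.10 (adjusted p = 0.0102), was lost without LAMP2A+DM-αKG replicate 1 (0.0625, in a range over alternatives of 9.54e-04 to 0.0625). Apc in LAMP2A+DM-αKG lay -0.09 from VT (adjusted p = 0.0896), a difference that passed without VT replicate 2 (1.87e-06, in a range over alternatives of 1.87e-06 to 0.395). Porcn (chrX:8193848-8206525), the acyltransferase that WNT ligands need before they leave the cell, went against the ligands. It stood at 52.8, 51.3 and 50.4 CPM in VT, 16.9, 19.0 and 20.8 CPM in LAMP2A and 31.5, 32.9 and 34.2 CPM in LAMP2A+DM-αKG. LAMP2A was 2.73-fold below VT (log2 fold change -1.45 ± 0.05, SE; adjusted p = 2.55e-23), and LAMP2A+DM-αKG was between, -0.64 from VT (adjusted p = 3.88e-13).

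Placing the 3 LAMP2A+DM-αKG libraries against the other 6, 24 of the 59 genes lay between VT and LAMP2A without touching either, and 23 overlapped VT but not LAMP2A. Among all genes tested these positions held 30.4% and 31.9%. Nkd2 and Sfrp1 lay above both groups (12.5% of all genes tested did), and Ctnnb1, Lgr4, Notum, Sfrp5 and Tcf7 below both (10.7%). Another 5, Wif1, Wnt10a, Wnt16, Wnt8b and Znrf3, overlapped both groups. Of the 10 Frizzled genes, 8 were between and 2 (Fzd4 and Fzd9) overlapped VT, and of the 18 ligands, 3 (Wnt5b, Wnt6, Wnt9a) were between and 12 overlapped VT. Several of these 12, among them Wnt2, Wnt2b, Wnt5a, Wnt7a, Wnt9b and Wnt10b, had few counts in both VT and LAMP2A+DM-αKG. Their overlap does not show that the levels were equal. Besides genes given above, Ror2 rose by 0.70 ± 0.06 (SE) in LAMP2A+DM-αKG against VT (adjusted p = 8.79e-11). Nothing in this comparison separates what the transgene leaves from what the compound adds, since both differ.

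**Figure D4:**
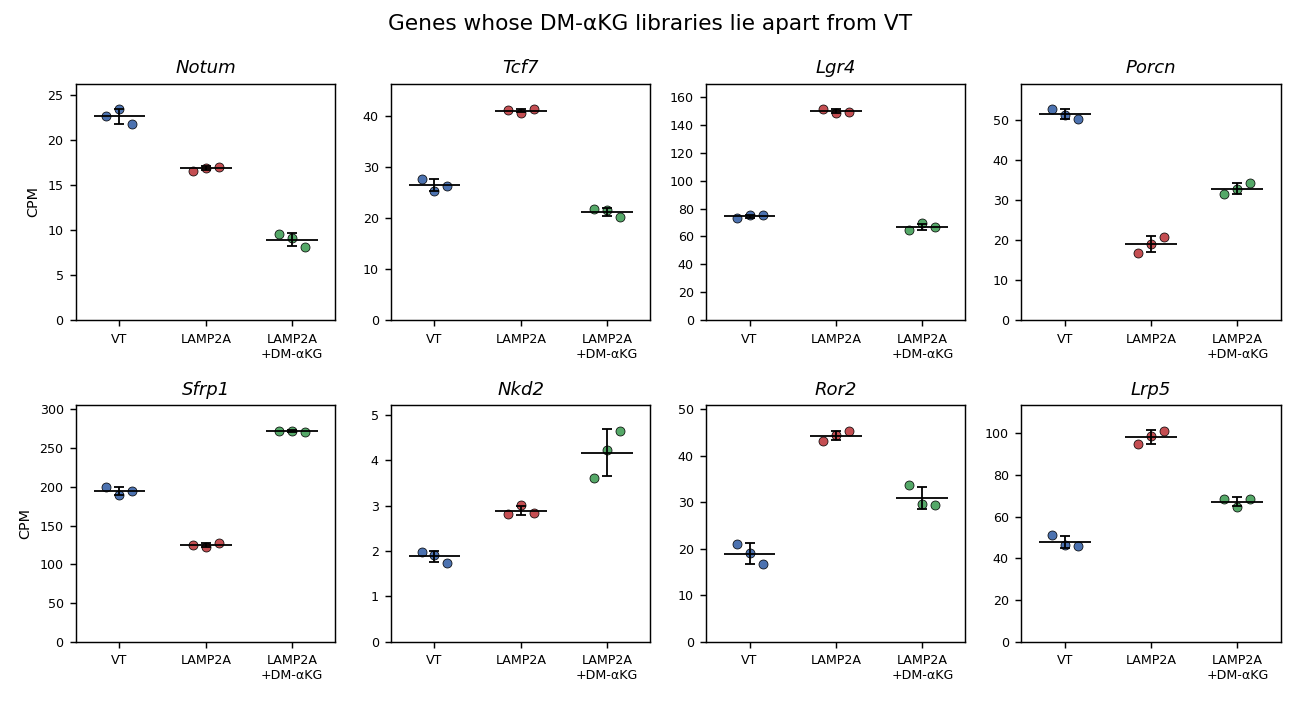
CPM of 8 genes in each library by group (line and error bar, mean and SD of 3 libraries). The LAMP2A+DM-αKG libraries lie below both other groups for Notum, Tcf7 and Lgr4, above both for Sfrp1 and Nkd2, and between them for Porcn, Ror2 and Lrp5.

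A further 73 WNT pathway genes were listed, 71 were in the table and 66 were tested. In LAMP2A against VT, 39 rose, 15 fell and 12 did not pass, 24 and 5 of them by at least 2-fold (19.8% and 9.61% of all genes tested). Among all genes tested, 43% rose, 42.1% fell and 85.1% passed in either direction. The count passing in either direction is thus near the background, while more of these genes rose than fell. With DM-αKG against LAMP2A, 14 rose and 38 fell (41.1% and 42.1% of all genes tested), and against VT, 24 rose and 18 fell (29.3% each). The 6 lists of these genes held 5 to 14 genes tested each. The list of R-spondins and secretion (5 tested) had 3 higher and 1 lower in LAMP2A against VT (43% and 42.1% of all genes tested). Its Wls, which carries WNT proteins to the surface and is needed beside Porcn, was named after its values were seen: it stood at 2.92, 2.44 and 2.38 CPM in VT, 187, 190.2 and 183 CPM in LAMP2A and 5.13, 5.70 and 5.22 CPM in LAMP2A+DM-αKG, 72.5-fold higher in LAMP2A than in VT (adjusted p = 5.35e-41), while Porcn fell. Of 7 other antagonists tested, 5 rose in LAMP2A and 7 fell with DM-αKG against LAMP2A (43% and 42.1% of all genes tested). The cytoplasmic relay (Dishevelled, kinases and ubiquitin ligases) was the flattest list. Of its 14 genes, 6 were higher, 3 lower and 5 not passing in LAMP2A against VT, where 85.1% of all genes tested passed. None reached 2-fold in any of the 3 comparisons.

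Of 14 other target genes tested, 10 rose, 3 fell and 1 did not pass in LAMP2A against VT (43% higher and 42.1% lower among all genes tested). In LAMP2A+DM-αKG against VT, 2 rose and 7 fell (29.3% each among all genes tested), with a median of -0.27. The cell cycle regulators Myc and Ccnd1, both known targets of β-catenin among other inputs and named after their values were seen, were below VT there. Myc stood at 37.4, 37.4 and 35.8 CPM in VT, 63.4, 63.5 and 59.2 CPM in LAMP2A and 17.6, 17.2 and 16.4 CPM in LAMP2A+DM-αKG. Ccnd1 stood at 72.7, 67.1 and 71.4 CPM in VT, 74.4, 77.5 and 74.5 CPM in LAMP2A and 42.2, 41.7 and 42.5 CPM in LAMP2A+DM-αKG. Each was lowest in the LAMP2A+DM-αKG libraries without overlap, at log2 fold changes of -1.11 ± 0.05 and -0.74 ± 0.04 against VT (SE; adjusted p = 4.60e-19 and 2.14e-17). Axin2 and Sp5 did not pass in the same comparison, and Lef1 was higher.

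In the authors' deposited table for LAMP2A against VT, 44 of the 59 genes were higher and 9 lower at an adjusted p under 0.05. Of these, 51 also passed with edgeR, all with the same sign. Wnt2 and Wnt9b passed in the authors' deposited table and were not tested with edgeR, and Znrf3 passed with edgeR alone. The authors' deposited table for LAMP2A+DM-αKG against LAMP2A listed 58 of the genes, 10 higher and 45 lower, of which 52 passed with edgeR with the same sign. Exons of 11 of the 59 genes (Axin2, Ctnnb1, Fzd5, Fzd6, Lef1, Notum, Sfrp2, Tcf7l1, Wnt11, Wnt5a and Wnt7b) overlap those of a gene on the opposite strand. Their values are less certain, since whether the counting used strand is not given in the sources used here.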

How the data were processed

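RNA libraries were made with a stranded TruSeq mRNA kit, per the labels' protocols. The authors deposited whole-number counts per gene symbol; the submitters' processing notes name STAR 2.7.1, HTSeq 0.11.2 and build mm10, but which annotation and strand setting were used is not given in the sources used here. The authors also deposited 2 tables of their DESeq2 comparisons, with log2 fold changes and adjusted p-values per the file headers, used only for the counts that name them. No column was left unmapped to a sample.

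The members and gene lists were chosen with earlier results of these data known. Counts were fitted with edgeR 4.0.16 in R 4.3.3 (TMM, filterByExpr, estimateDisp, robust glmQLFit, glmQLFTest) as 3 group means over all 9 libraries, with 6 residual degrees of freedom and Benjamini-Hochberg adjustment over 14513 genes. At a common biological coefficient of variation of 2.74%, small differences pass. SE was derived from the log2 fold change and its F statistic, and is left out where a group has few counts. Totals of 23636074 to 32809875 counts and TMM factors of 0.989 to 1.01 were used for CPM, and exon lengths come from GENCODE M21. A floor of 3 counts over a group and exact 95% intervals cover counting error only.

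Values in every library are given for the 3 genes of each role with the highest mean CPM, the 3 with the largest fold changes in each comparison among those that passed with at least 1 CPM in the higher group, and the 5 largest for LAMP2A+DM-αKG against VT. Wnt3a, Wls, Myc, Ccnd1, Daam1, Celsr1, Bcl9l and Aes were added after their values were seen.

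Libraries of a group differed beyond counting noise (chi-square statistics of 1.19 to 5.93 per degree of freedom), so none were merged. Replicate numbers are shared by the groups, and the deviations of same-numbered libraries correlated at only -0.03 to 0.01. No pairing by number was thus detected, but with 3 libraries a group a weak shared effect could go unseen. On simulated counts for LAMP2A against VT (14275 genes), 50 genes were changed at each fold and all genes were given the same spread. The test recovered 76%, 90%, 100% and 100% of genes changed by 1.5, 2, 4 and 8-fold, and called 0.071% of the 14076 unchanged genes. In the data 85.1% of genes passed, so the adjusted threshold is looser there. The simulated rate of false calls therefore does not carry over to these comparisons. DESeq2 1.42.0, RLE scaling, no filter beyond the 10-count minimum, the 6 libraries of a comparison alone, a replicate block and leaving out each library were tried as alternatives.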

Additional observations from a re-analysis of the deposited data

How the results depend on the processing

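No result changed direction in a called value under any alternative run. The counts of genes higher and lower stayed within 1.5 times: leaving out 1 library at a time gave 42 to 44 higher and 9 lower in LAMP2A against VT, 9 to 10 higher and 42 to 43 lower in LAMP2A+DM-αKG against LAMP2A, and 19 to 22 higher and 8 to 10 lower in LAMP2A+DM-αKG against VT. The median log2 fold change of the genes tested moved more than the spread between libraries. In LAMP2A against VT it was 1.24 with DESeq2, 1.22 with no filter beyond the 10-count minimum, and 1.32 to 1.41 without single libraries. In LAMP2A+DM-αKG against LAMP2A it was -1.21 with DESeq2, -1.19 with no filter, -1.41 in the 6 libraries alone, and -1.33 to -1.25 without single libraries. Against VT it was 0.21 to 0.26 without single libraries. Over genes averaging 5 CPM or more, a choice made after seeing the data, the medians were 1.00 and -0.71. DESeq2 and the run with no filter also took in the genes with too few counts for the main test. The 6 libraries of LAMP2A+DM-αKG against LAMP2A alone left 1 gene untested, and the limit of 5 CPM dropped others. Those of LAMP2A+DM-αKG against VT alone left 11 untested, with a median of 0.21. Those medians are therefore taken over other sets of genes than the main one. How much of each move comes from this was not tested. With a replicate block the counts were 43 and 9, 9 and 43, and 21 and 11, where Apc in LAMP2A+DM-αKG against VT passed (adjusted p = 0.0374) and no other call changed; this block rests on shared numbers alone. Of the genes named, 12 calls were lost and 2 gained in single alternatives, each given above. Among the others, Sfrp5, Wnt3a, Wnt10a, Ryk, Fzd4 and Fzd9 crossed the threshold in at least 1 alternative. RLE scaling moved the median of all genes by -0.012 to 0.011, and DESeq2, which changes the model too, by -0.036 to 0.038. Of the 14 ligands tested, 10 had a VT mean under 1 CPM, so that their folds rest on few counts.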

Other observations

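Planar cell polarity genes, which serve the branch of WNT signalling that works without β-catenin, were measured with 13 genes tested. Of these, 8 rose, 3 fell and 2 did not pass in LAMP2A against VT, where 43% of all genes tested rose and 42.1% fell. The count passing in either direction was near the 85.1% of all genes tested that passed. By at least 2-fold, 6 rose and 1 fell (19.8% and 9.61% of all genes tested). In LAMP2A+DM-αKG against LAMP2A, 3 rose and 6 fell (41.1% and 42.1% of all genes tested), where 83.2% of all genes tested passed. At least 2-fold changes there were 1 rise and 6 falls (8.06% and 17.6% of all genes tested). Daam1, a formin that Dishevelled activates, stood at 53.2, 49.7 and 54.0 CPM in VT, 239, 236 and 232 CPM in LAMP2A and 50.0, 48.7 and 49.5 CPM in LAMP2A+DM-αKG, and was 4.50-fold higher in LAMP2A than in VT (edgeR adjusted p = 2.34e-34). Celsr1, a cadherin of the polarity complex, stood at 78.3, 63.1 and 72.4 CPM in VT, 31.5, 33.0 and 31.5 CPM in LAMP2A and 98.6, 104 and 108 CPM in LAMP2A+DM-αKG. It was 2.22-fold lower in LAMP2A than in VT (adjusted p = 7.27e-11) and was above VT in LAMP2A+DM-αKG, by 0.54 ± 0.06 (SE; adjusted p = 7.75e-07). Among 13 nuclear cofactors, 7 rose and 5 fell in LAMP2A against VT, near the 43% and 42.1% of all genes tested. Bcl9l, which links β-catenin to its coactivators, stood at 15.8, 12.0 and 13.4 CPM in VT, 69.3, 72.2 and 73.5 CPM in LAMP2A and 18.3, 16.6 and 18.5 CPM in LAMP2A+DM-αKG and rose 5.24-fold (adjusted p = 5.14e-27). Aes, a short Groucho relative, stood at 258, 262 and 234 CPM in VT, 69.0, 70.9 and 71.6 CPM in LAMP2A and 273, 272 and 277 CPM in LAMP2A+DM-αKG and fell 3.56-fold (adjusted p = 1.79e-31). These 4 genes were picked after their values were seen.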
